A study of Mus musculus with 6 samples.

Results

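The PI3K-related kinases, or PIKKs, are a family of giant proteins that share a kinase domain related to that of the lipid kinases of phosphatidylinositol. The family was followed here through the messages of its 6 genes, Mtor, Smg1, Atr, Atm, Prkdc and Trrap, in RNA that came down with an antibody against PNMA4 from mouse testis. The genes were chosen by name, as the IDs whose symbol equals one of these 6, and each symbol belonged to 1 of the 57010 IDs of the count table. The table lists the gene of PNMA4 as Moap1, and its protein descends from a retrotransposon capsid. Setting WT against testes without PNMA4 is meant to separate RNA recovered through PNMA4 from RNA that comes down without it.

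There were 3 wild-type (WT) libraries and 3 libraries lacking PNMA4, which the study used as its controls. WT mice were C57BL/6J, per the labels. Of the controls, 2 came from mice without Pnma4 (Pnma4 KO replicates 1 and 2) and 1 from mice without Pnma1 and Pnma4 (the double knockout, DKO), which the labels count as replicate 3 of the group. Each library came from 1 lysate of 8 pooled testes collected at 3 months, from which particles were enriched on sucrose and then on iodixanol, with fractions 8 and 9 entering the immunoprecipitation. The labels do not say how the deletions were made or on which background the knockouts were kept. Input RNA was not analysed here, so every level below is an abundance in the immunoprecipitate, and fewer cells of a type and less RNA per cell cannot be told apart. Recovery through PNMA4 and a change of the RNA in the testis itself cannot be told apart either.

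PIKKs sit at the top of several signalling pathways. mTOR couples nutrients and growth factors to protein synthesis and growth, and SMG1 phosphorylates UPF1 in nonsense-mediated decay, which removes messages with premature stop codons. ATM and the DNA-dependent protein kinase, whose catalytic subunit Prkdc encodes, respond to DNA double-strand breaks, and ATR responds to single-stranded DNA. TRRAP keeps the fold of the family but has lost the residues needed for catalysis, and serves as a scaffold in histone acetyltransferase complexes. In the testis, ATM limits the number of programmed meiotic breaks and ATR drives the silencing of the unsynapsed sex chromosomes in spermatocytes.

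Totals per library ran from 3138657 to 6367930 counts. Moap1 had 7, 26 and 27 counts in WT replicates 1 to 3 and 0 in each library lacking PNMA4, and Pnma1 had 0 counts in the DKO library and 76 to 152 in the others. All 28 germ cell markers checked had counts in every library, as did 51 of all 54 testis markers. The 3 others, at 0 in at least 1 library, were Inhba of Sertoli cells, Pecam1 of endothelium and Cd68 of macrophages. The DKO library stood apart, with 57.5% of its counts in the ribosomal RNA-like gene Rn18s-rs5 against 27.3% to 36.1% elsewhere. Levels are given as CPM, which are counts relative to library size after TMM scaling. Markers of Leydig cells, 7 in all, summed to 162 to 188 CPM in WT and 159 to 417 CPM without PNMA4, highest in DKO. In DKO, tested markers of Sertoli cells summed to 380 CPM, of spermatogonia to 77.9 CPM and of peritubular and vascular cells to 66.2 CPM. The highest WT sums of these lists were 259, 54.1 and 56.5 CPM. For spermatocytes, round and elongating spermatids and macrophages, the DKO sum was not above the highest WT sum. The part of these markers in the results below was not tested. WT replicate 2 stood apart in Lars2, at 0.751% of counts against 4.34% to 10.8% elsewhere.

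No PIKK message differed between WT and the libraries lacking PNMA4 beyond the spread between libraries. All 6 passed the filter on low counts and were tested with edgeR's quasi-likelihood test over 13413 genes, and 0 of 6 passed at an adjusted p under 0.05. Of all tested genes, 0.0596% passed. At an unadjusted p under 0.05 there were 0 of 6 members and 392 of all 13413 tested genes, and DESeq2 and limma-voom also gave 0 members. Log2 fold changes, WT over lacking PNMA4, were positive for 5 members and negative for Atr, with a median of 0.15 beside 0.01 over all tested genes. On the log2 scale the 95% interval stayed within 1 of 0 for 6 of 6 members, and for 71.1% of all tested genes. As fold changes, the intervals reached from 0.669 at the lowest, for Atr, to 1.79 at the highest, for Prkdc. Together the 6 messages summed to 2268 ± 299 CPM in WT and 2167 ± 127 CPM without PNMA4 (SD, n = 3 each). Counts were not divided by message length, so levels of different members are not ranked.

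**Figure D1:**
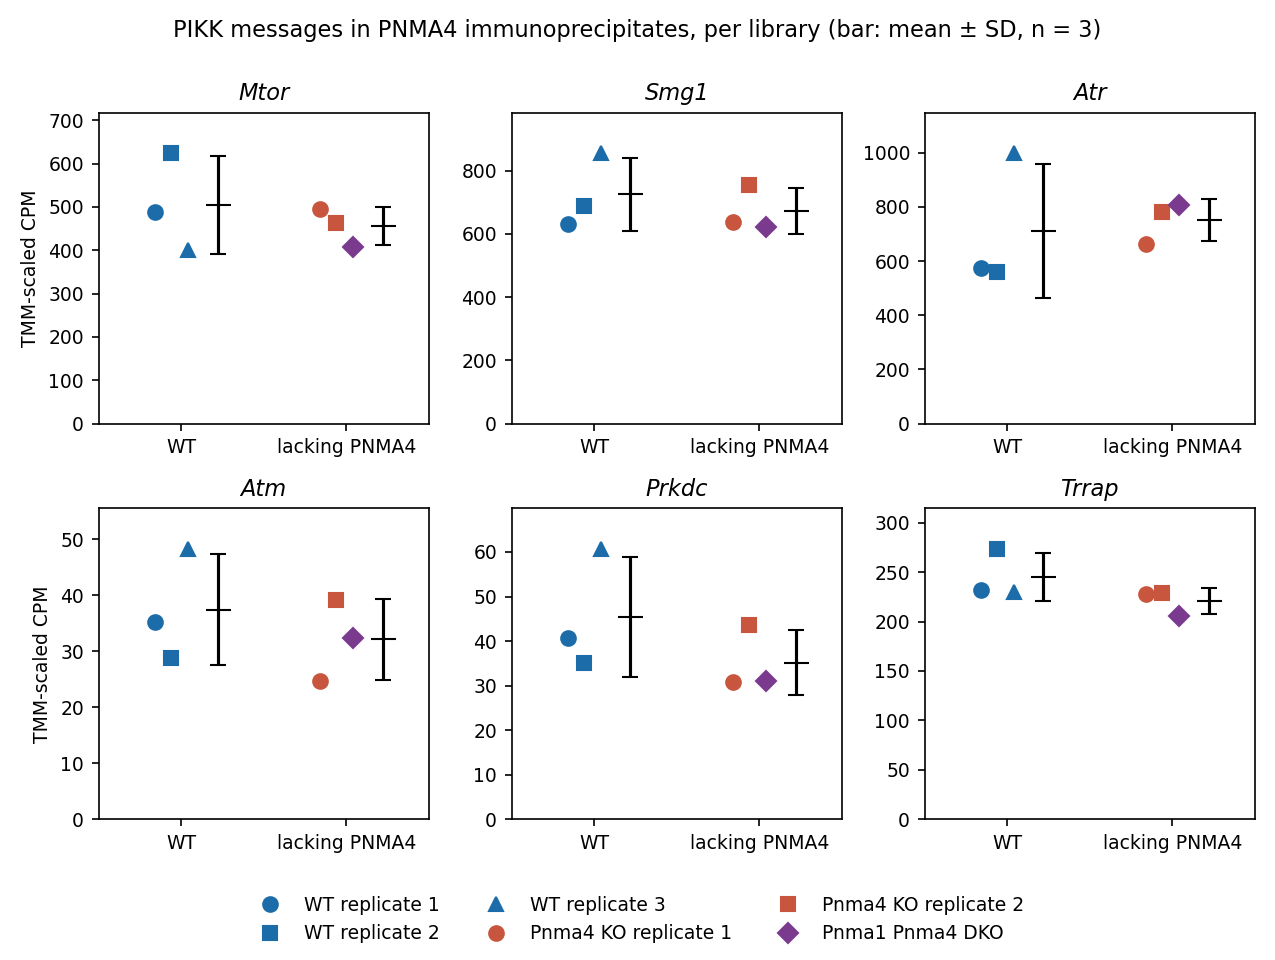
Levels of the 6 PIKK messages in each library, in TMM-scaled CPM on axes that start at 0, with WT left and the group lacking PNMA4 right and a bar for the mean ± SD of 3 libraries. The groups overlap in every panel except that of Trrap, where WT replicate 3 at 229.5 CPM lies just above Pnma4 KO replicate 2 at 229.0 CPM.

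Mtor encodes the kinase of the complexes mTORC1 and mTORC2 (ENSMUSG00000028991, chromosome 4, 148448582 to 148557685 in GRCm38.p6). Its message stood at 489, 624 and 401 CPM in WT replicates 1 to 3, from 1862, 4879 and 2609 counts. Without PNMA4 it stood at 495 and 464 CPM in Pnma4 KO replicates 1 and 2 and at 408 CPM in the DKO library. WT replicate 2 was the highest library and WT replicate 3 the lowest, so the WT libraries enclosed all 3 controls. The means were 505 ± 112 CPM in WT and 456 ± 44.4 CPM without PNMA4 (SD, n = 3 each). WT over lacking PNMA4 came to 0.15 ± 0.22 in log2 (estimate ± SE, here and below; edgeR adjusted p = 1.00), and to −0.03 without WT replicate 2.

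Smg1 encodes the kinase that starts nonsense-mediated decay (ENSMUSG00000030655, chromosome 7, 118131308 to 118244437). It stood at 631, 688 and 855 CPM in WT replicates 1 to 3, against 639 and 755 CPM in the Pnma4 KO libraries and 623 CPM in the DKO library. WT replicate 3 was the highest of the 6 libraries and DKO the lowest, and the groups overlapped. Smg1 averaged 725 ± 116 CPM in WT and 673 ± 72.1 CPM without PNMA4 (SD, n = 3 each). The log2 fold change of 0.11 ± 0.22 did not pass (edgeR adjusted p = 1.00), and was −0.02 without WT replicate 3.

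Atr encodes the kinase of the replication stress response (ENSMUSG00000032409, chromosome 9, 95857597 to 95953217). It stood at 573, 561 and 998 CPM in WT replicates 1 to 3, against 663 and 782 CPM in the Pnma4 KO libraries and 808 CPM in the DKO library. WT replicate 3 was above all 3 controls and the other two WT libraries were below all of them. Means were 710.8 ± 248.8 CPM in WT and 751 ± 77.6 CPM without PNMA4 (SD, n = 3 each). In log2, WT over lacking PNMA4 was −0.08 ± 0.24 (edgeR adjusted p = 1.00). It was 0.05 without WT replicate 1, 0.07 without WT replicate 2 and −0.40 without WT replicate 3.

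Atm encodes the kinase of the double-strand break response (ENSMUSG00000034218, chromosome 9, 53437122 to 53536828). Its counts were 134, 225 and 314 in WT replicates 1 to 3, 78 and 274 in the Pnma4 KO libraries and 97 in DKO. On the CPM scale these were 35.2, 28.8 and 48.2 CPM in WT, against 24.8 and 39.1 CPM in the Pnma4 KO libraries and 32.4 CPM in DKO. WT replicate 3 was the highest library and Pnma4 KO replicate 1 the lowest. Atm averaged 37.4 ± 9.91 CPM in WT and 32.1 ± 7.20 CPM without PNMA4 (SD, n = 3 each). The log2 fold change of 0.21 ± 0.24 did not pass either (edgeR adjusted p = 1.00), and was −0.02 without WT replicate 3 and 0.05 without Pnma4 KO replicate 1.

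Prkdc encodes the catalytic subunit of the DNA-dependent protein kinase, which acts in end joining (ENSMUSG00000022672, chromosome 16, 15637444 to 15842239). It had 155, 274 and 395 counts in WT replicates 1 to 3, 97 and 305 in the Pnma4 KO libraries and 93 in DKO. These gave 40.7, 35.0 and 60.7 CPM in WT, against 30.8 and 43.6 CPM in the Pnma4 KO libraries and 31.1 CPM in DKO. WT replicate 3 was again the highest library, and the groups overlapped through Pnma4 KO replicate 2. The means were 45.5 ± 13.5 CPM in WT and 35.2 ± 7.30 CPM without PNMA4 (SD, n = 3 each). Its log2 fold change of 0.36 ± 0.23 was the largest of the 6 (95% interval −0.12 to 0.84, edgeR adjusted p = 1.00), and ran from 0.09 without WT replicate 3 to 0.55 without Pnma4 KO replicate 2.

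Trrap encodes the scaffold without kinase activity (ENSMUSG00000045482, chromosome 5, 144767737 to 144859778). It stood at 232, 273.5 and 229.5 CPM in WT replicates 1 to 3, against 228 and 229.0 CPM in the Pnma4 KO libraries and 206 CPM in DKO. All 3 WT libraries lay above all 3 controls, by a margin of under 1 CPM between WT replicate 3 and Pnma4 KO replicate 2. Of all tested genes, 3.28% had all WT libraries above all controls. Without TMM scaling the groups of Trrap overlapped, with 245 CPM of all counts in WT replicate 3 and 252 CPM in Pnma4 KO replicate 2. Trrap averaged 245 ± 24.6 CPM in WT and 221 ± 13.2 CPM without PNMA4 (SD, n = 3 each), or 0.15 ± 0.20 in log2 (edgeR adjusted p = 1.00). That value was 0.07 without WT replicate 2, and 0.0010 with WT replicate 2 and DKO both left out.

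**Figure D2:**
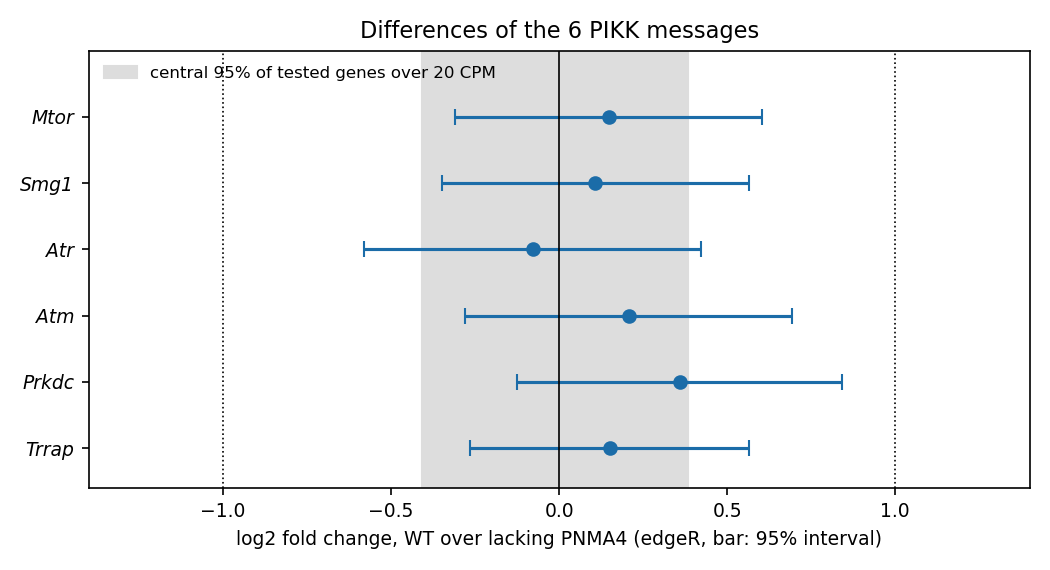
Log2 fold changes of the 6 messages, WT over lacking PNMA4, from edgeR, with 95% intervals, a grey band for the central 95% of the 4871 tested genes above 20 CPM (−0.41 to 0.38) and dotted lines at −1 and 1. Each interval includes 0 and each estimate lies inside the band, with Prkdc at 0.36 the farthest from 0.

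The spread between libraries of 1 group differed among the members. The SD of log2 CPM within groups, pooled over both, was 0.12 for Trrap, 0.19 for Smg1 and 0.25 for Mtor, and 0.35 each for Atm, Atr and Prkdc. Its median was 0.31 over all tested genes and 0.24 over the 1169 genes above 100 CPM. Trrap was thus the steadiest message, with a highest library 1.33 times its lowest, while that ratio was 1.97 for Prkdc and 1.95 for Atm.

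The members did not all move together across libraries. On the log2 scale, relative to each gene's mean over 6 libraries, WT replicate 3 was high for Prkdc (0.63), Atm (0.50), Atr (0.48) and Smg1 (0.30). In the same library Mtor was at −0.24 and Trrap at −0.02. WT replicate 2 showed another order, with Mtor at 0.39 and Trrap at 0.24, and Atr at −0.35, Atm at −0.24 and Prkdc at −0.16. Atm, Prkdc, Atr and Smg1 were all low in Pnma4 KO replicate 1 (−0.45 to −0.11) and all high in Pnma4 KO replicate 2 (0.12 to 0.20). Their signs differed in WT replicate 1 and in DKO, where Atr was at 0.18 and Prkdc at −0.33. These deviations are differences within a gene, so a length factor shared by all libraries drops out of them. A length effect that differs between libraries would remain, and was not tested. WT replicate 2 is the library with a low share of Lars2, and the part of this composition in the deviations was not tested.

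**Figure D3:**
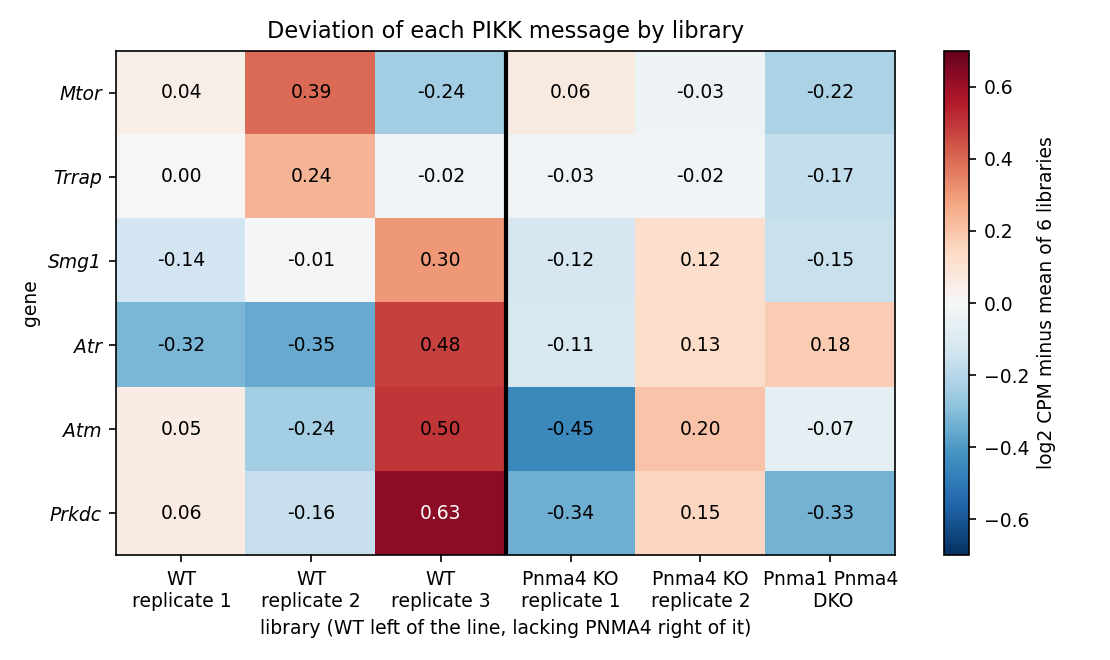
Deviation of each message from its own mean over 6 libraries, as log2 CPM, with WT libraries left of the black line and libraries lacking PNMA4 right of it. WT replicate 3 is high for Smg1, Atr, Atm and Prkdc (0.30 to 0.63) and WT replicate 2 for Mtor and Trrap (0.39 and 0.24), and the 3 largest deviations are all in WT replicate 3.

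The ratio of a pair of members within 1 library is free of any scaling between libraries, and all 15 such ratios of counts were compared. Mtor over Atr ranged most widely. It was 0.854, 1.11 and 0.402 in WT replicates 1 to 3, against 0.748 and 0.593 in the Pnma4 KO libraries and 0.504 in DKO. The highest and the lowest value, 2.77-fold apart, both came from WT libraries (two-sided exact permutation p = 0.6, n = 3 each). The steadiest ratios were Mtor over Trrap, between 1.75 and 2.28 in the 6 libraries, and Atm over Prkdc, between 0.795 and 1.04.

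The groups were apart in 1 of the 15 ratios. Atr over Prkdc was 14.1, 16.02 and 16.4 in WT replicates 1 to 3, against 21.5 and 17.9 in the Pnma4 KO libraries and 26.0 in DKO. Its means were 15.5 ± 1.27 in WT and 21.8 ± 4.03 without PNMA4 (SD, n = 3 each). The two-sided exact permutation p was 0.1, the smallest that 3 against 3 libraries can give, and was 0.9 after Benjamini-Hochberg adjustment over 15 ratios. No ratio could therefore reach 0.05 in this design.

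For Mtor and Atr, the pair whose ratio ranged most widely, the DNA before the start sites is shown from RefSeq (GRCm38.p6). CG dinucleotides are in capitals. Any part of these sequences in the levels was not tested. The first is the 250 bases before the start of Mtor, on the plus strand at chr4:148448332-148448581. The second is the 79 bases between the start of Atr, on the plus strand, and a start of 1700065D16Rik on the opposite strand, at chr9:95857518-95857596. A second annotated start of 1700065D16Rik lies inside Atr.
Mtor: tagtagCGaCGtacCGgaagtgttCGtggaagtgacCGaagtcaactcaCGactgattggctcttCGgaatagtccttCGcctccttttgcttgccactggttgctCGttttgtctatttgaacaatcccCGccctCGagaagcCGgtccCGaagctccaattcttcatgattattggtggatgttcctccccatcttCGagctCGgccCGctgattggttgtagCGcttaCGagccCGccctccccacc
Atr: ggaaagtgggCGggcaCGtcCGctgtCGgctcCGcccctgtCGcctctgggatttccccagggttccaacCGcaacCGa
The stretches hold 19 and 8 CG dinucleotides. In the 250 bases before the start there were 19 in Mtor, 15 in Atr, 24 in Atm, 23 in Smg1 and 26 in Trrap. These are the 5 members matched by symbol, and the median over 32851 RefSeq promoters was 6. Such counts are not rare, as 27.3% of all promoters had at least as many as Atr, the lowest of the 5. The share was 19.7% for the count of Mtor and 9.59% for that of Trrap, the highest. The letters TATAA were in none of these 5 windows on either strand, and were in 22.8% of all promoters. The starts used for Atm, Smg1 and Trrap lie inside the gene spans given above. So do the whole windows of Smg1 and Trrap and part of that of Atm.

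Other genes overlap the members, and the sources used here give no strand setting for the counting, so reads of overlapping genes cannot be told apart with certainty. The 8 overlapping genes in the count table had few counts beside their PIKK gene. The most was Gm16794, a long noncoding RNA gene across the end of Atr, with at most 0.734% of the Atr count in any library. The gene 1700065D16Rik, across the start of Atr, had 8, 16 and 17 counts in WT replicates 1 to 3, against 5 and 12 in the Pnma4 KO libraries and 3 in DKO. Npat, a histone gene regulator, lies on the opposite strand from Atm, and their annotated spans begin 60 bases apart. Npat had 124, 328 and 319 counts in WT, against 100 and 297 in the Pnma4 KO libraries and 106 in DKO. On the TMM scale Npat stood at 32.6, 42.0 and 49.0 CPM in WT and 31.7, 42.4 and 35.4 CPM without PNMA4, so its highest library was also WT replicate 3. Mcm4, a subunit of the replicative helicase 43 bases from Prkdc, stood at 8.00 ± 0.394 CPM in WT and 6.14 ± 1.01 CPM without PNMA4 (SD, n = 3 each), or 0.37 in log2 (edgeR adjusted p = 1.00).

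All 6 members span more than 90 kb of the genome, from 92.0 kb for Trrap to 204.8 kb for Prkdc, introns included. Among 11712 tested protein-coding genes with a RefSeq span, the 2010 genes over 90 kb had a median log2 fold change of 0.03, and the 2486 genes under 10 kb one of −0.02. By library, genes over 90 kb deviated from their own means by a median of 0.06 on the log2 scale in WT replicate 3 and −0.07 in Pnma4 KO replicate 1. Genes under 10 kb stood at −0.11 and 0.03 in the same libraries. The part of span in the members' values was not tested. Message lengths were not used here.

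The DKO library, which carries no Pnma1, was also set against the Pnma4 KO libraries. With 1 library, the second deletion and the composition of that library cannot be told apart. Of 13413 genes, 0.0746% were called between them in a fit with 3 genotypes (edgeR adjusted p under 0.05), and 0 of 6 members were. At an unadjusted p under 0.05 there were 830 genes and 0 members, the lowest member p from edgeR being 0.480 for Prkdc. The lone DKO library was assumed to vary as the other groups do. Log2 fold changes, DKO over Pnma4 KO, were −0.27 for Prkdc, −0.23 for Mtor, −0.16 for Smg1, −0.15 for Trrap, 0.002 for Atm and 0.16 for Atr, with standard errors of 0.33 to 0.38. The interval for Atr ran from −0.61 to 0.93, and that for Prkdc from −1.04 to 0.50. As a share of all counts, the 6 messages held 0.132% of the DKO library, against 0.209% and 0.254% of the Pnma4 KO libraries, beside the share of Rn18s-rs5 given above.

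Genes of the pathways around the PIKKs also had 0 calls, where 0.0596% of all tested genes were called. Of 156 tested genes in 8 lists, counted once each, 86 had positive and 70 negative log2 fold changes, 0 passed in either direction, and the median was 0.02. Over all tested genes 6974 were positive and 6439 negative. The highest list median, 0.17, was that of 15 nonsense-mediated decay genes around SMG1, and the lowest, −0.09, that of the lipid kinases.

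Subunits and regulators of the mTOR complexes had 9 positive and 13 negative values among 22 tested, with a median of −0.03. Depdc5, of the GATOR1 complex that restrains mTORC1, stood at 67.6 ± 9.53 CPM in WT and 71.5 ± 5.27 CPM without PNMA4 (SD, n = 3 each, as for the following genes). Rictor, which defines mTORC2, stood at 60.3 ± 19.4 CPM in WT and 59.4 ± 8.87 CPM without PNMA4. Tsc1, of the complex that inhibits Rheb, stood at 50.4 ± 7.19 CPM in WT and 53.5 ± 8.54 CPM without PNMA4. Of 15 targets of mTOR, 9 were positive and 6 negative, with a median of 0.04. Among them Larp1, which binds messages of ribosomal proteins, stood at 822 ± 101 CPM in WT and 732 ± 72.2 CPM without PNMA4, and the autophagy kinase gene Ulk2 at 230.1 ± 30.8 CPM in WT and 219 ± 30.7 CPM without it. The cap-binding gene Eif4e had 84.0 ± 4.66 CPM in WT and 81.8 ± 7.74 CPM without PNMA4.

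Among 15 genes of nonsense-mediated decay, 11 were positive and 4 negative. Smg5, which acts in the dephosphorylation of UPF1, stood at 210.4 ± 46.9 CPM in WT and 199 ± 21.5 CPM without PNMA4. Smg6, the endonuclease of the pathway, stood at 181 ± 25.7 CPM in WT and 149 ± 29.1 CPM without PNMA4, or 0.28 ± 0.21 in log2 (edgeR adjusted p = 1.00). The summed level of this list ran from 1190 to 1470 CPM in WT, against 1092 to 1331 CPM without PNMA4, where DKO was the lowest.

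Partners of ATM, ATR and the DNA-dependent protein kinase in the DNA damage response had 16 positive and 9 negative values among 25 tested, with a median of 0.10. Mdc1, a scaffold at double-strand breaks, stood at 482 ± 84.9 CPM in WT and 403 ± 96.1 CPM without PNMA4, and was lowest in DKO at 294 CPM. Rif1, which directs break repair, stood at 333 ± 89.5 CPM in WT and 306 ± 46.6 CPM without PNMA4, with WT replicate 3 highest at 436 CPM. Topbp1, an activator of ATR, stood at 116 ± 12.5 CPM in WT and 102 ± 13.7 CPM without PNMA4. Genes of meiotic breaks had 8 positive and 8 negative values among 16, with a median of −0.02. Brca2 stood at 124 ± 20.9 CPM in WT and 113 ± 13.8 CPM without PNMA4. Ankrd31, which acts in meiotic break formation, had 79.9 ± 17.7 CPM in WT and 83.5 ± 8.24 CPM without PNMA4, and Hormad1 of the chromosome axis 25.6 ± 15.6 CPM in WT and 32.7 ± 7.49 CPM without it.

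Complexes that hold TRRAP had 18 positive and 15 negative values among 33 tested, with a median of 0.04. Ep400, the remodelling subunit of the TIP60 complex, stood at 804 ± 103 CPM in WT and 699 ± 72.9 CPM without PNMA4. Supt20 of the SAGA complex had 300.2 ± 64.1 CPM in WT and 312 ± 30.5 CPM without PNMA4, and Morf4l1 of the TIP60 complex 275 ± 18.9 CPM in WT and 283 ± 17.1 CPM without it. The chaperone factors that mature PIKK proteins had 8 positive and 7 negative values among 15, with a median of 0.04. Hsp90aa1 stood at 989 ± 188 CPM in WT and 994 ± 134 CPM without PNMA4, and Hsp90ab1 at 116 ± 17.5 CPM in WT and 113 ± 7.33 CPM without it. Ruvbl2, a helicase-like subunit, had 48.7 ± 10.3 CPM in WT and 45.6 ± 3.12 CPM without PNMA4. Lipid kinases and their regulatory subunits had 7 positive and 8 negative values among 15. Pi4ka, a kinase of phosphatidylinositol, had 218 ± 44.3 CPM in WT and 202 ± 14.1 CPM without PNMA4. Pik3r3 had 78.8 ± 18.4 CPM in WT and 85.4 ± 7.397 CPM without PNMA4, and Pik3cd 77.1 ± 15.6 CPM in WT and 63.1 ± 10.7 CPM without it.

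**Figure D4:**
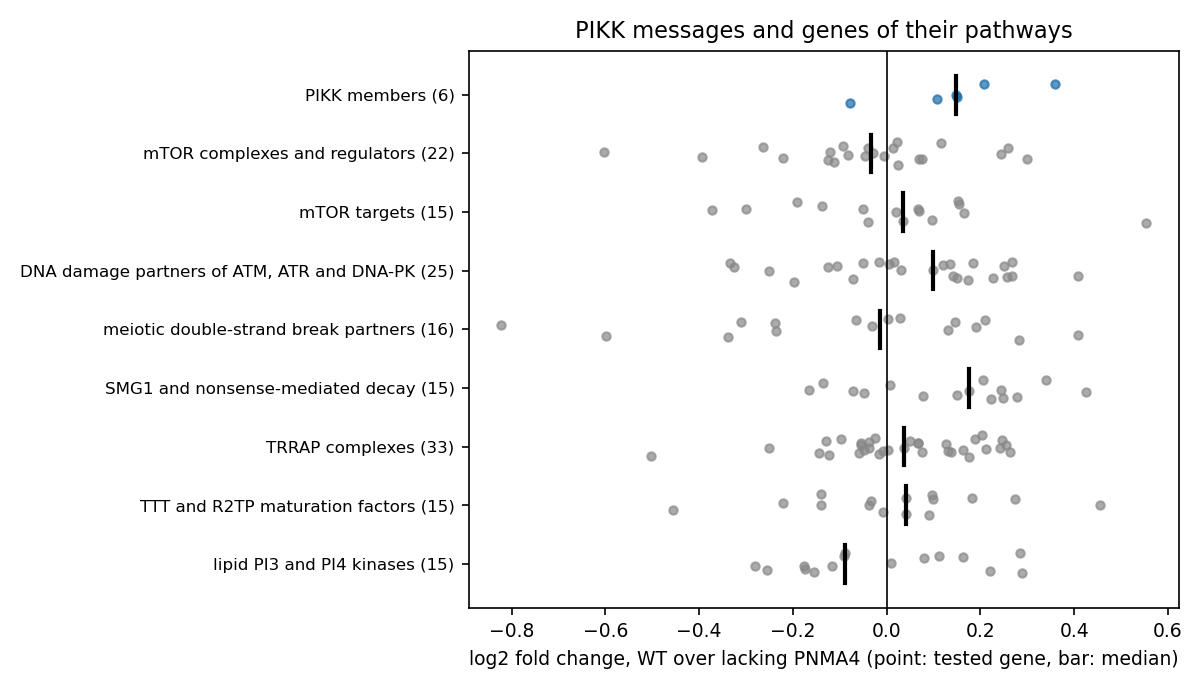
Log2 fold changes, WT over lacking PNMA4, of the 6 PIKK messages and of tested genes in 8 lists around them, with 1 point per gene, a bar at each median and the number of genes in brackets. Points of every list lie on both sides of 0, with medians from −0.09 to 0.17.

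Messages whose levels followed a member most closely were sought among 6758 other tested genes above 10 CPM, by Pearson's r of log2 CPM over the 6 libraries. With so many candidates and 6 libraries, high values are common and are given as a description. Mtor was followed by Wdr62, a spindle pole gene (r = 0.997), which stood at 596, 809 and 456 CPM in WT replicates 1 to 3, against 579 and 536 CPM in the Pnma4 KO libraries and 461 CPM in DKO. Med24, a Mediator subunit, was next at 0.996. Trrap was followed by Jag1 (0.992), and Smg1 by Helz (0.987) and Nfat5 (0.985).

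The 3 DNA damage kinases had other neighbours. Atr was followed by the splicing kinase gene Clk1 (r = 0.995) and by Tmem18 (0.993). Atm was followed by Zfp638 (0.990) and by Smc1b, which encodes a meiotic cohesin subunit (0.990). Smc1b stood at 249.4, 216 and 361 CPM in WT replicates 1 to 3, against 168 and 292 CPM in the Pnma4 KO libraries and 246 CPM in DKO. Prkdc was followed by Synj1 (0.995) and Atosa (0.9798). The edgeR test between WT and lacking PNMA4 called 0 of the genes named here as following a member, and 0.0596% of all tested genes. These genes were picked for following members that were not called, so this count is no separate result.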

How the data were processed

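The authors deposited 1 table of raw counts per Ensembl gene ID for 6 libraries. The submitters' processing notes name bcl2fastq 2.20, STAR 2.5.2b, featureCounts, DESeq2 and GRCm38, without roles. All count columns were matched to libraries by name. The deposited counts were tested with edgeR 4.0.16 (quasi-likelihood F test, R 4.3.3) after filterByExpr (minimum count 10, minimum total 15) and TMM scaling, with Benjamini-Hochberg adjustment over 13413 genes at 0.05. Standard errors were taken as |log2 fold change| divided by √F. Log2 CPM used a prior count of 2. Alternatives included DESeq2 1.42.0 and limma-voom (limma 3.58.1). The test was also run on simulated data with known changes. The members and lists were chosen with earlier results of these data known. Named were all members, Moap1 and Pnma1, called or else the 3 most abundant genes of each list, and the 2 genes most like each member, of which some are not reported here. Neighbours were named by position. Coding lengths were to scale levels and to pick genes of like length, but were not used here, and genomic spans took their place. Annotation and promoters came from RefSeq GRCm38.p6, matched by symbol. Same-numbered libraries did not deviate together (correlations −0.06 to 0.08), so numbers were not taken as pairs.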

Additional observations from a re-analysis of the deposited data

How the results depend on the processing

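No member passed under any of 16 alternatives, in 96 member values. Prkdc and Trrap kept a positive log2 fold change in all 16, of 0.089 to 0.62 for Prkdc and 0.0010 to 0.45 for Trrap. With 1 library left out, the log2 fold change of Mtor ranged from −0.028 to 0.29, of Atr from −0.40 to 0.069 (0.047 without WT replicate 1), of Atm from −0.025 to 0.39 and of Smg1 from −0.023 to 0.20. With WT replicate 2 and the double knockout both left out, chosen after seeing the data, Mtor was at −0.12, Atr at 0.11 and Trrap at 0.0010. Without scaling factors the median of all genes was 0.31, that of the members 0.45 and Atr 0.22, so Atr stayed below the median of all genes. Genes called were 8, against 31 with no low-count filter, where more genes were tested, 8 to 18 with 1 library left out (18 without the double knockout) and 19 with both libraries out; the cause was not tested. Between DKO and Pnma4 KO, calls were 10, and 201 without scaling, which moved the median of all genes to −0.76. There Atm was at −0.76 and Atr at −0.60. Atm was at −0.0098 with upper-quartile scaling and −0.13 against the 5 other libraries, where 28 genes were called. With the replicate block 7 genes were called and the member median was 0.14, changing no call of a member. Levels per coding length were not run. Standard errors were 0.20 to 0.24 for all 6 members, with 3 libraries a group.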
